A study of Rattus norvegicus with 8 samples.

Results

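Plasma of adult rats that had been exposed to 5% intermittent hypoxia (IH) as neonates was set directly against plasma of adult rats exposed to 10% IH, by the transcripts each induced in the same healthy blood cells. The comparison uses the 2 arrays titled 5% IH and the 2 titled 10% IH, which are 4 of the 8 arrays of the series, and 14217 genes. No array of normoxic control plasma or of autologous plasma enters a ratio or a test below, so the comparison asks where the responses to the more severe (5% oxygen) and the milder (10% oxygen) exposure differ, whatever either does against control. The genes and gene lists described were chosen with earlier results of these arrays known.

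The reporter cells were peripheral blood mononuclear cells (PBMCs) of 2 healthy male Brown Norway rats about 180 days old, called BN1 and BN2. Wells of 500000 cells of a donor were cultured for 6 h with 20% plasma. The 5% IH plasma was 1 pool from 5 rats and the 10% IH plasma 1 pool from 3 rats, all male Sprague-Dawley rats bled as adults (PD114) and exposed for 1 h a day on postnatal days 2 to 6. The 2 other plasmas of the series were a pool of 8 Sprague-Dawley rats raised at 21% oxygen and autologous Brown Norway plasma. Since each IH plasma was pooled once, the arrays of a group differ by reporter donor and not by plasma animal, and the severity of neonatal hypoxia cannot be told apart from the make-up of the pools. All 4 cultures compared share the strain mismatch between plasma and cells.

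PBMCs hold lymphocytes and monocytes and act here as a biosensor, since plasma factors that bind their receptors change which genes they transcribe. Monocytes that sense microbial products through Toll-like receptors activate NF-kB and transcribe interleukin 1 (IL-1), chemokines and the inducible cyclooxygenase gene Ptgs2. Glucocorticoids, the adrenal steroids that damp this response, act through a receptor that binds DNA and induces another set of genes, among them Fkbp5, Tsc22d3 (also called Gilz) and Rasd1. Neonatal intermittent hypoxia stands for apnoea of prematurity, in which breathing stops repeatedly and blood oxygen drops.

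The deposited values are log2 levels of Affymetrix probe sets, from 1.66 to 14.3, and a difference of 1 on this scale is a 2-fold difference. A gene is given by its brightest probe set. Transcripts of the cell types of blood were measured on all 4 arrays. Cd3e, of T cells, lay at 10.26 to 10.40, Ms4a1, of B cells, at 9.39 to 9.57, Lyz2, of monocytes, at 10.86 to 11.10 and Nkg7, of cytotoxic lymphocytes, at 8.64 to 8.90. Cd4 was dim, at 4.61 to 4.72. The platelet gene Pf4 was bright, at 12.41 to 12.69, so the preparations also held platelets or their RNA. In such mixed cells fewer cells of a type and less RNA per cell cannot be told apart.

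One of the 4 arrays stood apart. With 10% IH plasma on BN1 cells, 113 genes lay over 0.5 from the median of the other Sprague-Dawley plasma arrays, against 30 to 62 genes on each of those. Correlations between arrays were nonetheless 0.9967 to 0.9983. Values without this array are given beside the genes and lists that it moved most.

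A gene met the study's criterion when its Rank Product p was under 0.05 (1-sided, from permutations) and its levels differed over 1.2-fold, which is 0.263 on the log2 scale. By it 636 genes differed between 5% and 10% IH plasma. With 5% IH, 373 genes were higher, 2.62% of all genes, and 263 were lower, 1.85%. Every gene past the fold threshold also had the p, so the fold threshold alone gave the same counts. Differences were mostly small, with 20 genes over 1.5-fold (13 higher, 7 lower with 5% IH) and 3 over 2-fold. The median ratio over all genes was -0.000815. limma, which sets each difference against the spread between arrays, called 0 genes once p-values were adjusted by Benjamini-Hochberg over the whole table, and 505 genes had an unadjusted p under 0.05. Its lowest adjusted p was 0.181, for Rasd1. A permutation test of 2 arrays against 2 cannot go below an exact 2-sided p of 0.333 and is not given.

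The ratios of the 2 donors share no array. In BN1 cells 1766 genes were past the threshold in either direction, and in BN2 cells 1308. The same direction in both was shown by 187 genes, of which 118 were higher with 5% IH (0.83% of all genes) and 69 lower (0.485%), while 87 were past it in opposite directions. Across genes, which are not independent replicates, the ratios of the 2 donors correlated at r = 0.146. Of the genes that met the criterion, 41 had donor ratios of opposite sign. Both 5% IH arrays lay above both 10% IH arrays for 323 of the 373 higher genes and below for 218 of the 263 lower ones. Over all genes this held for 17.3% and 15.1%, so that it says little about a single gene. Of 92 genes chosen for description that met the criterion, 51 fell under the threshold with at least 1 of the 4 arrays left out, and of the 24 with the largest differences 2 did. With 1 array left out more of all genes met the criterion, in both directions. List counts given below without an array are therefore not comparable with the 2.62% and 1.85% of all genes. The plot of donor ratios shows how few genes lie far from the bulk in both donors.

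**Figure D1:**
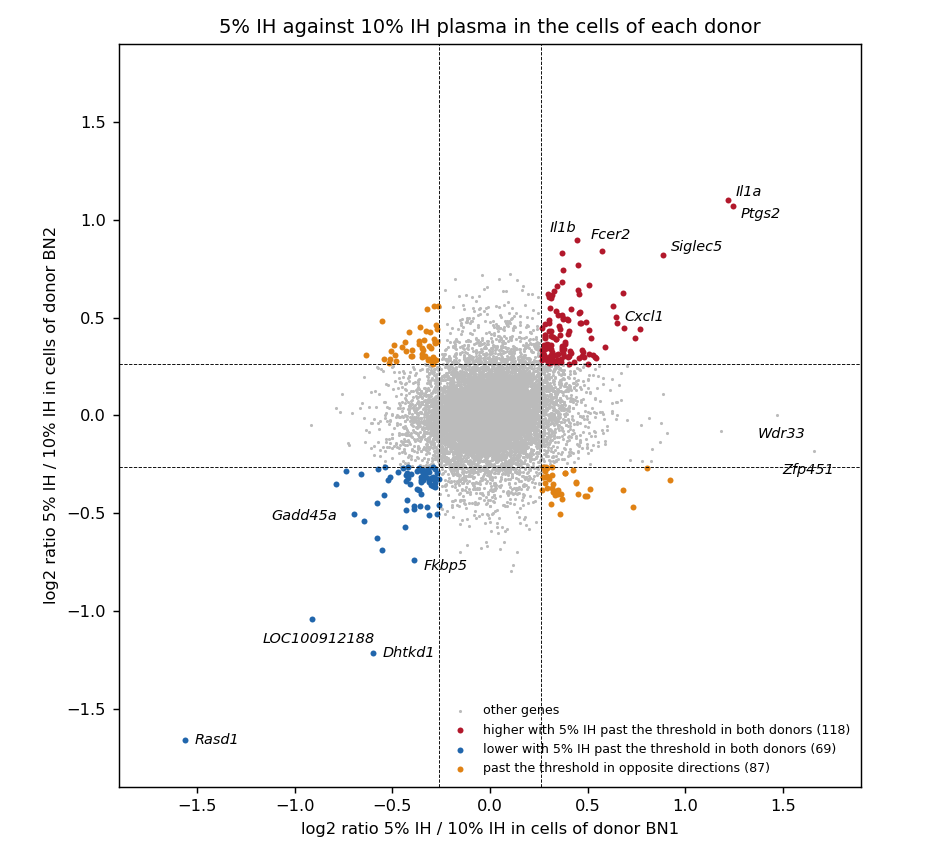
Each point is a gene, with its log2 ratio of 5% over 10% IH plasma in BN1 cells on the x axis and in BN2 cells on the y axis, and dashed lines mark the 1.2-fold threshold. Il1a and Ptgs2 stand apart at the upper right (over 1 in both donors) and Rasd1 at the lower left, and Wdr33 and Zfp451 differ in BN1 cells alone.

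The 2 largest rises were those of Il1a and Ptgs2. Il1a, which encodes the cytokine IL-1 alpha, and Ptgs2, which encodes cyclooxygenase 2 of prostaglandin synthesis, were each over 2-fold higher with 5% IH plasma, in the cells of both donors. Il1b, encoding IL-1 beta, was 1.59-fold higher and the neutrophil chemokine gene Cxcl1 1.49-fold. Glucocorticoid-induced Rasd1, a gene for a Ras-related small GTPase, moved the other way and was 3.05-fold higher with 10% IH.

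These genes carry the comparison, so the 250 bases of reference sequence before the transcription start of Il1a, Ptgs2, Cxcl1 and Rasd1 are shown, from RefSeq on the rat build GRCr8, 5′ to 3′ on the strand of the gene. The windows are chr3:136990018-136990267 (minus strand) for Il1a, chr13:64713813-64714062 (plus strand) for Ptgs2, chr14:17479322-17479571 (minus strand) for Cxcl1 and chr10:45267683-45267932 (minus strand) for Rasd1. Capitals mark letters that match 1 of 6 motifs searched on both strands.
Il1a: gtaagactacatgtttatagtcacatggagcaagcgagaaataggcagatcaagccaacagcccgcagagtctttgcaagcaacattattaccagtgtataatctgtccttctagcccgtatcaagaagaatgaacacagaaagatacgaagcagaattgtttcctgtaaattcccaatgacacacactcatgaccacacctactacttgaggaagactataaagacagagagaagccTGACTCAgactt
Ptgs2: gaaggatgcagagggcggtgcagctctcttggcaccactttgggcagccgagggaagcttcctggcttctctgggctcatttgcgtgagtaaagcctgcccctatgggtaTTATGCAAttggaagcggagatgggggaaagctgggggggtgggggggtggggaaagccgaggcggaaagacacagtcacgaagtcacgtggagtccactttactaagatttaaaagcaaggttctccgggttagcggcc
Cxcl1: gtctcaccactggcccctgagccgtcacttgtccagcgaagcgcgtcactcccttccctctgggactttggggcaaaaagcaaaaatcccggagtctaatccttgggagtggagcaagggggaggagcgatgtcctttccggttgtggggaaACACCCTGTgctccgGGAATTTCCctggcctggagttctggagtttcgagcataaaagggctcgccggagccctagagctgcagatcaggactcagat
Rasd1: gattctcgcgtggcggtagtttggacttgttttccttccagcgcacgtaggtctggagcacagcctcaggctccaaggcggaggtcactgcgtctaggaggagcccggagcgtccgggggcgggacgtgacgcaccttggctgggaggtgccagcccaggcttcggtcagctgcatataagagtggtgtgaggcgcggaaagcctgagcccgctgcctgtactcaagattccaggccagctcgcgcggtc

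The motifs were NF-kB (GGANTTTCC), the core bound by the glucocorticoid receptor (ACANNNTGT), AP-1 (TGANTCA), the cyclic AMP response element (TGACGTCA), C/EBP (TTGCNNAA) and the interferon-stimulated response element (GAAANNGAA), where N is any base. In the Cxcl1 window GGAATTTCC lay 83 to 75 bases and ACACCCTGT 98 to 90 bases before the start. The Il1a window held TGACTCA, an AP-1 match, 12 to 6 bases before the start, and the Ptgs2 window TTATGCAA, a C/EBP match on the other strand, 140 to 133 bases before it. In the Rasd1 window no letters matched. Of 33469 rat promoter windows of this length, 1.08% held the NF-kB letters, 5.81% the receptor core, 6.34% AP-1, 1.59% the cyclic AMP element, 9.22% C/EBP and 8.12% the interferon element. Of the 12 genes with the largest rises 11 had a window, and C/EBP letters lay in 4 of these (Klhl14, Ptgs2, Tlr7 and Ubd), AP-1 in 1 and the others in 0. Of the 12 with the largest falls 8 had a window, and LOC100912188 alone held a match, to the receptor core and the interferon element. A match describes letters in a window and is not a site shown to be bound.

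The log2 level of Il1a was 6.51 and 6.20 with 5% IH (BN1 and BN2) and 5.29 and 5.09 with 10% IH. All 4 values are separate, and the difference was 1.16 (SE 0.14, 95% interval 0.83 to 1.49, limma adjusted p = 0.778). A second, dimmer probe set of Il1a gave 0.49. Ptgs2 lay at 5.95 and 5.60 with 5% IH and at 4.70 and 4.53 with 10% IH, a difference of 1.16 (SE 0.14). Ptgs2 is dim, with a mean level at percentile 25 of all genes, and Il1a and Cxcl1 lie at percentiles 35.1 and 32.2. Il1b, a bright gene, lay at 10.08 and 10.18 against 9.63 and 9.28, so that its difference was 0.44 in BN1 cells and 0.90 in BN2 cells. Cxcl1 lay at 6.18 and 6.22 against 5.54 and 5.72, and its 2 values with 5% IH were closer together than those with 10% IH.

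Of 38 measured inflammatory cytokine and chemokine genes, 11 were higher with 5% IH, or 28.9% beside 2.62% of all genes, and 0 were lower. The median ratio of the list was 0.11, and 22 of its members had a positive ratio. After Il1a, Il1b and Cxcl1 came Tnf at 0.48, Cxcl16 at 0.46, Cxcl2 at 0.41, Il10, an anti-inflammatory cytokine, at 0.33, Ccl20 at 0.32, Ccl7 at 0.31, Il23a at 0.30 and Ccl3 at 0.28. Past the threshold in both donors were 6 of the 11, beside 187 of all 636 genes that met the criterion. The rise was not shared by every chemokine, since ratios were -0.25 for Cxcl10, -0.25 for Cxcl3, -0.24 for Ccl2 and -0.04 for Ccl4, none of which met the criterion. Other probe sets of Cxcl3 gave -0.04 to 0.14, and the mean of its probe sets was 0.01. A second probe set of Tnf gave -0.08. Il6 was dim, at 3.05 and 3.43 against 2.87 and 3.09, and its ratio of 0.26 lay at the threshold without meeting the criterion. The list was 10 higher and 4 lower without the 10% IH array of BN1, and 6 higher and 5 lower without the 5% IH array of BN2. Without the latter array Cxcl2 was at 0.18, Ccl3 at 0.16, Il10 at 0.21 and Ccl20 at 0.26, and without the former Cxcl2 was at 0.19. More of all genes, too, were called in both directions with either array left out.

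Of 20 measured genes of IL-1 family receptors, the inflammasome and their signalling, 0 met the criterion in either direction, beside 2.62% of all genes higher and 1.85% lower, with ratios from -0.18 to 0.21. Without the 10% IH array of BN1, or without the 5% IH array of BN2, 1 was higher and 1 lower. The receptor Il1r1 was at 0.02 (95% interval -0.28 to 0.32), the decoy receptor Il1r2 at -0.09 and the antagonist Il1rn at -0.12 (95% interval -0.36 to 0.13). Il1r2 ranged from -0.47 to 0.30 with 1 array left out, so that its ratio gives no direction. Among 18 genes of prostaglandin and leukotriene synthesis Ptgs2 was the 1 higher gene by the brightest probe sets, and 3 were higher without the 10% IH array of BN1. The constitutive Ptgs1 was at 0.01 (95% interval -0.21 to 0.23) and the prostaglandin E synthase Ptges at 0.15 (-0.07 in BN1 cells, 0.37 in BN2 cells). A second, dimmer probe set of Ptges gave 0.45 and met the criterion, and the mean of its probe sets was 0.30. Alox5ap, needed for leukotriene synthesis, at -0.27, and the prostaglandin E receptor gene Ptger4, at -0.32, were lower with 5% IH. These 2 were at -0.07 and -0.01 without the 10% IH array of BN1. Of the 18 genes, 5.56% were higher and 11.1% lower, beside 2.62% and 1.85% of all genes.

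Of 23 subunits, inhibitors and targets of NF-kB, 3 were higher (13% beside 2.62% of all genes) and 0 lower, with a median of 0.09. They were Bcl2a1, a survival factor of the BCL2 family, at 0.47, the adhesion molecule gene Icam1 at 0.29 and Nfkbiz, an atypical inhibitor that promotes late inflammatory genes, at 0.29. Bcl2a1 lay at 8.83 and 9.0 against 8.37 and 8.53 and differed alike in both donors. Icam1 was at 0.21 without the 5% IH array of BN2. A second, dimmer probe set of Nfkbiz gave -0.004, and the mean of its probe sets was 0.14. The subunit Nfkb1 was at -0.01, the feedback inhibitors Nfkbia at -0.11 and Tnfaip3 at 0.07, and none of these met the criterion.

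**Figure D2:**
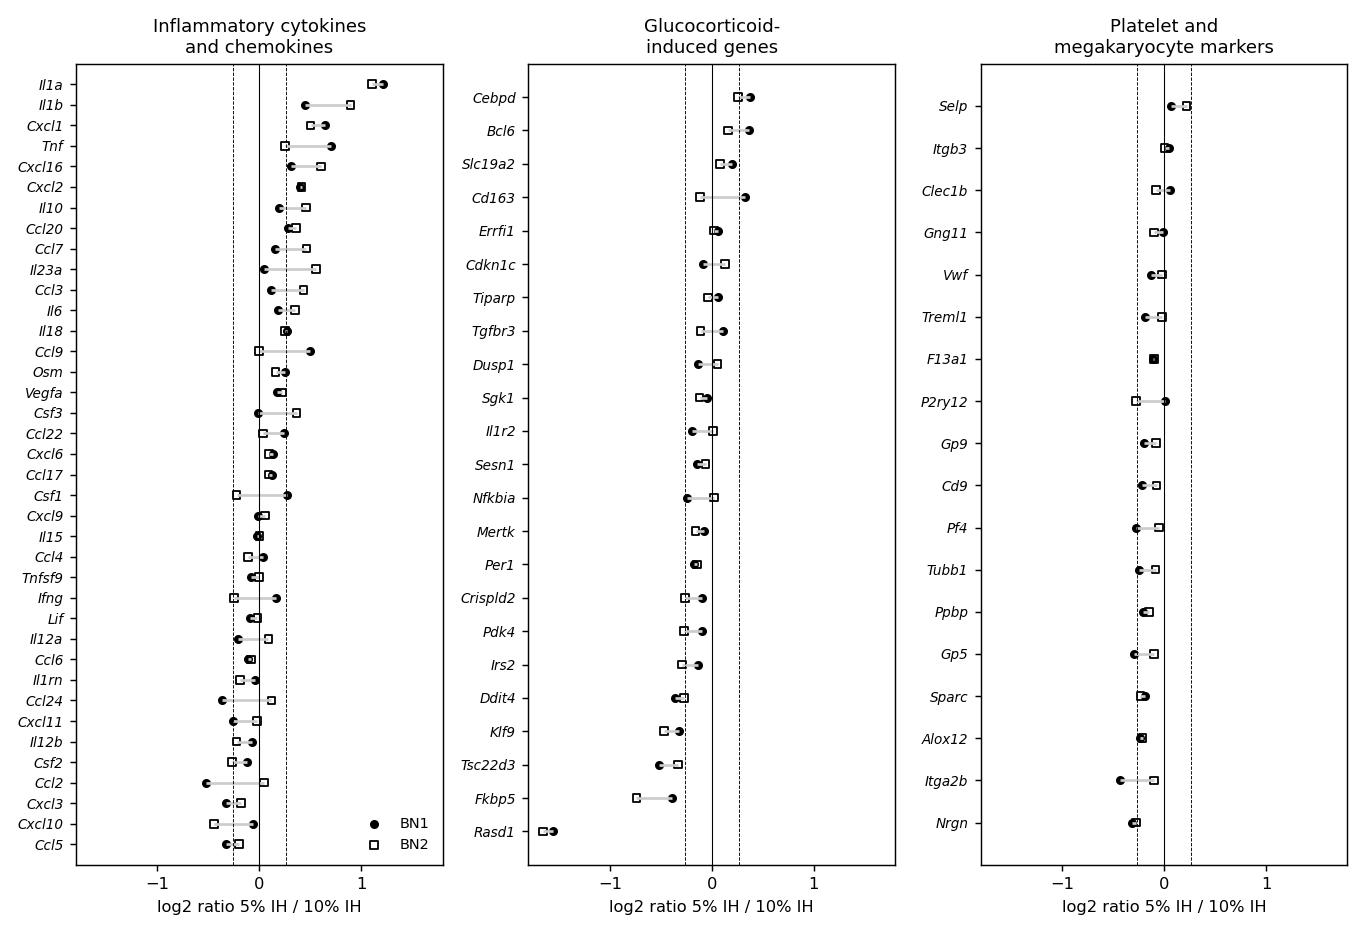
Log2 ratio of 5% over 10% IH plasma in BN1 cells (filled circles) and BN2 cells (open squares) for each measured gene of 3 lists, with dashed lines at the 1.2-fold threshold. Members of the cytokine list reach 1.22 above zero (Il1a in BN1 cells), those of the glucocorticoid list go down to -1.66 (Rasd1 in BN2 cells), and 16 of the 18 platelet markers have a ratio below zero at smaller sizes.

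Some receptors of myeloid cells were also higher with 5% IH. Siglec5, a sialic acid binding receptor of monocytes and neutrophils, was 1.81-fold higher, at 7.48 and 7.82 against 6.59 and 7.0, a difference of 0.85 (SE 0.18) that was 0.89 in BN1 and 0.82 in BN2 cells. Tlr7, an endosomal sensor of single-stranded RNA, lay at 6.24 and 6.66 against 5.87 and 5.82. Its difference of 0.60 was 0.39 without the 5% IH array of BN2. Of 15 Toll-like receptors and adaptors 4 were higher (26.7% beside 2.62% of all genes) and 0 lower (median 0.12). Beside Tlr7 these were Cd14, the co-receptor for endotoxin, at 0.37, Tlr8 at 0.32 and Tlr2 at 0.29. The count was 2 without the 5% IH array of BN2, with Tlr8 at 0.08 and Tlr2 at 0.17, and without the 10% IH array of BN1 Tlr8 was at 0.22. Tlr4, the endotoxin receptor itself, was at -0.10 and the adaptor Myd88 at -0.12, and neither met the criterion.

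Monocyte markers moved in part with these genes. Of 19 measured markers 5 were higher with 5% IH (26.3% beside 2.62% of all genes) and 0 lower. They were Siglec5, Adgre1 (the F4/80 antigen) at 0.55, Cd14, and the immunoglobulin G receptors Fcgr1a at 0.37 and Fcgr2b at 0.29. Adgre1 lay at 7.90 and 8.08 against 7.45 and 7.44. The other defining markers did not meet the criterion, with Csf1r at 0.02, Lyz2 at -0.07 and Cd68 at -0.09, and the median of the list was 0.06 (-0.02 in BN1 cells and 0.09 in BN2 cells). The mean level of the 19 genes was 7.14 and 7.31 with 5% IH and 7.04 and 7.12 with 10% IH. The part of monocyte number in the cytokine and receptor differences was not tested. Without the 10% IH array of BN1, or without the 5% IH array of BN2, 3 of the 19 were called, and Fcgr1a was then at 0.21 and 0.15.

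Cyfip1, a subunit of the complex that starts actin branching, was 1.57-fold higher with 5% IH, at 8.34 and 8.59 against 7.67 and 7.97. The values of the 2 plasmas do not overlap. Wdr33, of pre-mRNA 3′ end processing, belongs to the 12 largest rises by the rule but rests on 1 array. It lay at 8.41 and 8.68 with 5% IH and at 6.94 and 8.67 with 10% IH, and without the low array, the 10% IH array of BN1, its difference was -0.13. A second probe set of Wdr33 gave -0.04. Zfp451, a zinc finger protein gene named in the study, was alike, at 8.52 and 8.25 against 6.87 and 8.43, and its difference of 0.74 became -0.05 without that array.

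**Figure D3:**
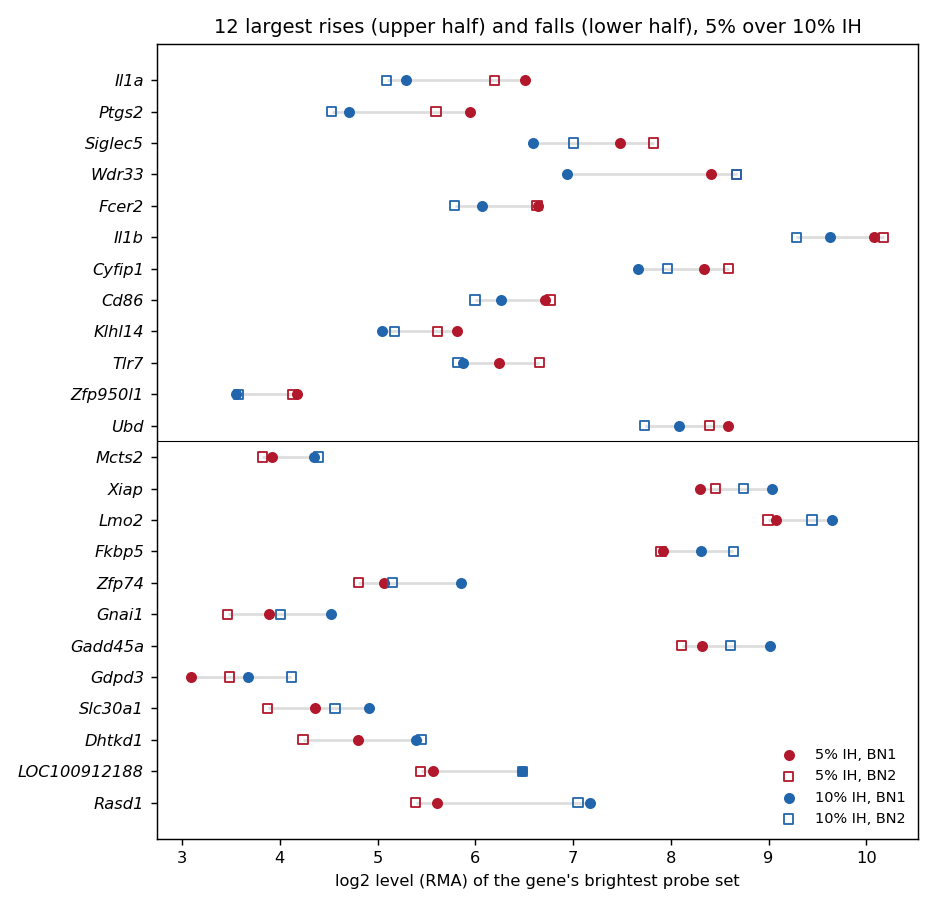
Log2 level of each gene's brightest probe set with 5% IH (red) and 10% IH plasma (blue) in BN1 (filled circles) and BN2 cells (open squares), for the 12 largest rises above the line and the 12 largest falls below it. The 2 colours are separate for 23 of the 24 genes, the exception being Wdr33. These genes were picked on the same arrays by large ratios of the same sign in both donors, which favours separation. The count is therefore not independent evidence for them. Over all genes both 5% IH arrays lay above both 10% IH arrays for 17.3% and below for 15.1%.

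Fcer2 encodes CD23, the low-affinity receptor for immunoglobulin E on B cells, and was 1.63-fold higher with 5% IH, at 6.64 and 6.63 against 6.07 and 5.79. A second, dimmer probe set gave 0.12. Cd86, a costimulatory ligand for T cells, lay at 6.71 and 6.77 against 6.26 and 6.00, a difference of 0.61 (SE 0.12), and its second probe set gave 0.16. Klhl14, a gene for a Kelch family protein, lay at 5.81 and 5.62 against 5.05 and 5.17, a difference of 0.61. Of 17 B cell and plasma cell markers 3 were higher (Fcer2, the signalling adaptor gene Bank1 at 0.36 and the joining chain gene Jchain at 0.29) and 1 lower (Tnfrsf17, a receptor of plasma cells, at -0.29). These shares were 17.6% and 5.88%, beside 2.62% and 1.85% of all genes. A second, dimmer probe set of Tnfrsf17 gave 0.05. Tnfrsf17 was at -0.20 without the 5% IH array of BN2, and without the 10% IH array of BN1 Jchain was at 0.22. The pan-B cell genes Ms4a1 at 0.06 (95% interval -0.18 to 0.31) and Cd79b at -0.12 did not meet the criterion. Cd86 was the 1 gene called of 17 (5.88%) in class II presentation and costimulation, where Cd40 was at 0.08, Cd80 at -0.00 and Cd83 at 0.23.

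Ubd, encoding the ubiquitin-like protein FAT10 that tumour necrosis factor and interferon gamma induce, lay at 8.59 and 8.40 with 5% IH and at 8.08 and 7.73 with 10% IH, a difference of 0.59. Of 28 interferon-stimulated genes 3 were higher (10.7% beside 2.62% of all genes) and 0 lower, with a median of 0.06. Plscr1, a phospholipid scramblase with antiviral activity, was at 0.56, at 5.15 and 5.16 against 4.78 and 4.42, Ifit2 was at 0.40 and Usp18 at 0.29. Ifit2 was at 0.19 without the 5% IH array of BN2 and at 0.23 without the 10% IH array of BN1. Usp18 was at 0.17 without the 5% IH array of BN1. The widely used interferon markers Mx1 at 0.15, Isg15 at 0.04 and Irf7 at 0.12 did not meet the criterion. Zfp950l1, a zinc finger protein gene among the 12 largest rises, was dim in all arrays, at 4.18 and 4.14 against 3.55 and 3.57.

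Genes that glucocorticoids induce leaned the other way, to 10% IH plasma. Rasd1 gave the largest difference of the comparison, at 5.61 and 5.39 with 5% IH and 7.17 and 7.05 with 10% IH, a log2 ratio of -1.61 (SE 0.11, 95% interval -1.89 to -1.33). The ratio was -1.56 in BN1 and -1.66 in BN2 cells. limma gave Rasd1 an adjusted p of 0.181, and of 0.054 with reporter donor as a block. Fkbp5, a cochaperone that tempers the glucocorticoid receptor, lay at 7.92 and 7.90 against 8.31 and 8.64, a ratio of -0.56, and its second probe set gave -0.52.

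Of 23 measured glucocorticoid-induced genes, 5 were lower with 5% IH, or 21.7% beside 1.85% of all genes, and 1 was higher, with a median of -0.10. The other 3 lower genes were Tsc22d3, a leucine zipper protein that mediates anti-inflammatory effects of the steroids, at -0.43, the transcription factor gene Klf9 at -0.39 and Ddit4, an inhibitor of mTOR signalling, at -0.31. By their brightest probe sets all 5 were past the threshold in both donors, beside 187 of all 636 genes that met the criterion. Other probe sets of Klf9 gave -0.22 and 0.02, and the mean of its probe sets was -0.20. Tsc22d3, among the brightest genes of the array, lay at 11.54 and 11.55 with 5% IH and at 12.06 and 11.88 with 10% IH. Cebpd, of the C/EBP family, was the 1 higher gene, at 0.32. Other genes of the list did not meet the criterion, with Per1 at -0.16, Sgk1 at -0.08 and Dusp1 at -0.04 (95% interval -0.29 to 0.21), and the receptor gene itself, Nr3c1, was at 0.07. A second, dimmer probe set of Nr3c1 gave -0.37 and met the criterion, and the mean of its probe sets was -0.15. The brightest probe set thus does not settle whether Nr3c1 differed. The number of lower genes was 4 to 6 with any 1 array left out, and it was 6 without the 10% IH array of BN1, although Ddit4 was then at -0.24. Rasd1 and Fkbp5 were named by the study from these arrays, and the list was written with that known.

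**Figure D4:**
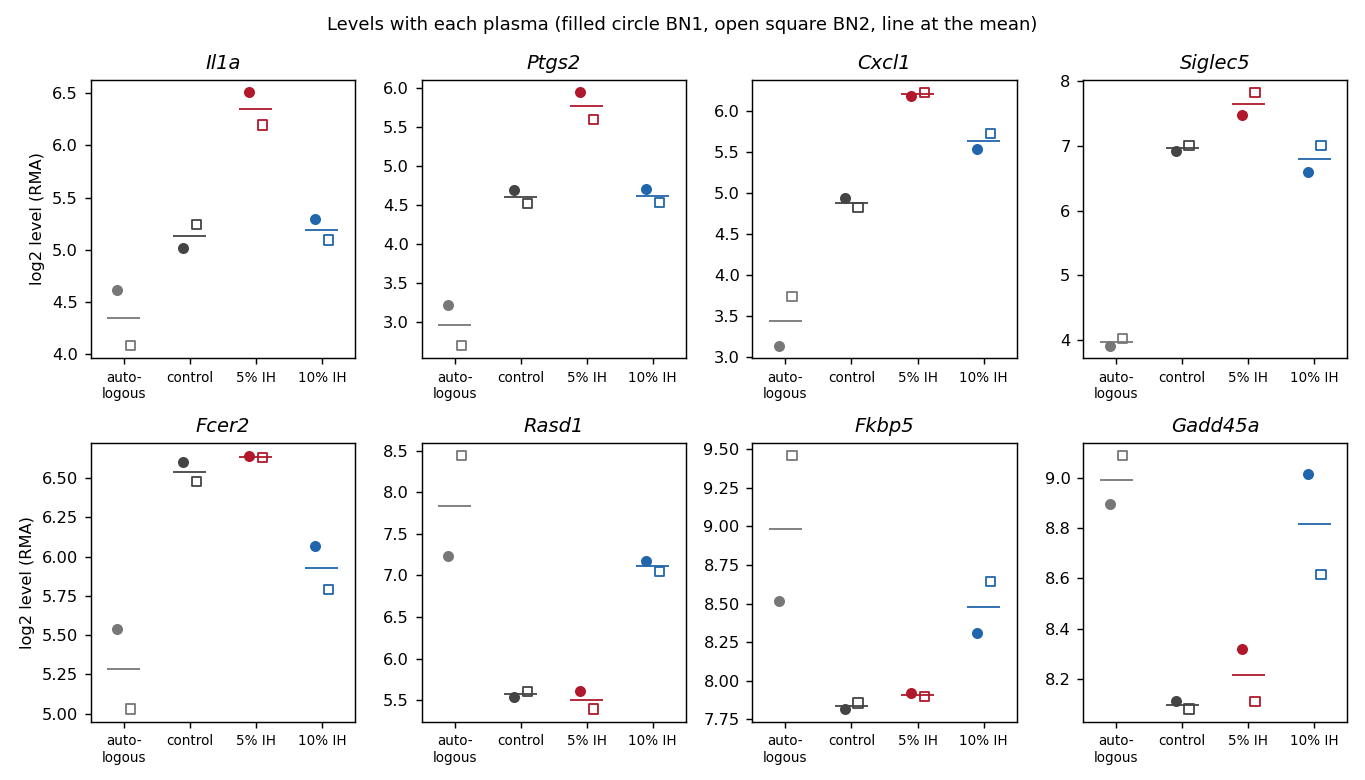
Log2 levels of 8 genes with each of the 4 plasmas, with BN1 cells as filled circles, BN2 cells as open squares and the mean as a line. Rasd1, Fkbp5 and Gadd45a lie higher with 10% IH than with control and 5% IH plasma, and Il1a and Ptgs2 are highest with 5% IH.

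The control and autologous arrays, which entered none of these ratios, give the level each gene has without IH plasma. With control plasma Rasd1 lay at 5.54 and 5.61, beside the values with 5% IH, and with autologous plasma at 7.23 and 8.44, beside or above those with 10% IH. Fkbp5 lay at 7.82 and 7.86 with control and at 8.51 and 9.46 with autologous plasma, the same order. For Il1a the control levels of 5.02 and 5.24 lay beside those with 10% IH, and Ptgs2 was likewise at 4.69 and 4.52. Cxcl1 was at 4.94 and 4.83 with control plasma, under both IH plasmas. Fcer2, at 6.61 and 6.48 with control plasma, and Klhl14, at 5.86 and 5.64, lay beside their values with 5% IH. So did Cd86, at 6.63 and 6.76. These values are a description, with no test.

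The remaining large falls with 5% IH came from genes of varied function. LOC100912188, annotated in RefSeq as a long noncoding RNA, lay at 5.57 and 5.44 against 6.48 and 6.48, a ratio of -0.98 (SE 0.10, limma adjusted p = 0.432). Dhtkd1, a subunit of a mitochondrial dehydrogenase in lysine breakdown, lay at 4.80 and 4.24 against 5.40 and 5.45, with a ratio of -0.60 in BN1 and -1.21 in BN2 cells. Gadd45a, a growth arrest gene induced by DNA damage and other stresses, lay at 8.32 and 8.11 against 9.02 and 8.61. The ratio of Gadd45a, -0.60, was -0.40 without the 10% IH array of BN1. Lmo2, a cofactor of blood cell transcription factors, lay at 9.07 and 8.99 against 9.65 and 9.44. Xiap, an inhibitor of caspases, lay at 8.30 and 8.46 against 9.04 and 8.74. Both probe sets of Xiap were lower, at -0.51 and -0.54.

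The other 5 of the 12 largest falls were dim genes, at mean levels between percentiles 12.6 and 35.1 of all genes. Slc30a1, a zinc exporter, was at -0.62, and at -0.38 without the 5% IH array of BN2. Gdpd3, a lysophospholipase D, was at -0.60, and at -0.38 without the 10% IH array of BN2. Gnai1, an inhibitory G protein subunit, was at -0.59 and was -0.33 without the 10% IH array of BN1. Zfp74, a zinc finger gene, was at -0.57 and fell under the threshold without that array, at -0.22. Mcts2, a retrogene copy of Mcts1 whose probe sets may not tell the copies apart, was at -0.50, and its second probe set gave -0.06. The deposited values carry no detection call, so that how far these genes lie above background is not known. The same holds for Il1a, Cxcl1 and Dhtkd1, at percentiles 35.1, 32.2 and 33.3, and for Ptgs2.

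Genes that answer cytokine receptors through STAT5 went both ways. Of 19 such genes 4 were lower with 5% IH (21.1% beside 1.85% of all genes) and 2 higher (beside 2.62% of all genes), with a median of -0.14. The lower ones were Il7r, the receptor of interleukin 7 on T cells, at -0.38 in both donors, the feedback inhibitors Socs1 at -0.35 and Cish at -0.30, and Id1, an inhibitor of transcription factors, at -0.27. Il7r was bright, at 11.12 and 11.07 against 11.50 and 11.45. Ccnd2, a cyclin of the G1 phase, at 0.40, and the survival kinase gene Pim2, at 0.27, were higher. The list was 4 lower and 0 higher without the 10% IH array of BN1, with Socs1 at -0.09 and Ccnd2 at 0.13, and its median was -0.05. Cish was at -0.26 without the 5% IH array of BN2. A second probe set of Socs1 gave -0.02, and the mean of its probe sets was -0.18.

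Of 26 immediate-early transcription factor genes 3 were higher (Ier2 at 0.33, Klf10 at 0.29 and Myc at 0.28) and 2 lower (Zfp36l2, an RNA-binding protein that shortens messenger lifetime, at -0.33, and Fosl2 at -0.33), with a median of 0.18. These shares were 11.5% and 7.69%, beside 2.62% and 1.85% of all genes. Zfp36l2 lay at 12.12 and 12.13 with 5% IH and 12.43 and 12.48 with 10% IH. Without the 10% IH array of BN1 the median was 0.07 and Klf10 was at 0.21. Without the 5% IH array of BN2 Ier2 was at 0.21 and Klf10 at 0.20, and without that of BN1 Fosl2 was at -0.11. Among 22 p53 target and growth arrest genes Gadd45a was lower and Cdkn1a, which encodes the cell cycle inhibitor p21, was higher, at 0.34 (0.16 without the 5% IH array of BN2 and 0.26 without the 10% IH array of BN1). Each call is 4.55% of the list, beside 2.62% of all genes higher and 1.85% lower. Mdm2, the p53 target that limits p53, was at -0.00 (0.01 in BN1 and -0.01 in BN2 cells).

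Lipid and antioxidant genes formed smaller groups. Of 18 genes of cholesterol synthesis and uptake 3 were higher with 5% IH and 0 lower (Sqle at 0.43, Idi1 at 0.29 and Cyp51 at 0.27, all enzymes of the sterol pathway), with a median of 0.10 and 16 of 18 ratios above zero. The 3 are 16.7% of the list, beside 2.62% of all genes. Sqle lay at 7.64 and 7.55 against 7.27 and 7.05. Without the 5% IH array of BN2 Idi1 was at 0.24 and 1 gene of the list was called, and without the 10% IH array of BN1 Cyp51 was at 0.17. Of 19 targets of the sterol-sensing receptor LXR and cholesterol efflux genes 4 were lower (Abca5 at -0.36, Mylip at -0.35, Nr1h2 at -0.32 and Lpcat3 at -0.28) and 1 higher (Abca1, the main cholesterol exporter, at 0.40). These shares were 21.1% and 5.26%, beside 1.85% and 2.62% of all genes. Nr1h2, which encodes LXR beta, was at 0.00 without the 10% IH array of BN1, and Abca1 at 0.20, while Abca5 was at -0.26 without the 5% IH array of BN1. The mean of the Nr1h2 probe sets was -0.18.

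Nqo1, a quinone reductase, is the standard target of the antioxidant factor NRF2. It lay at 8.77 and 8.95 with 5% IH and at 8.26 and 8.51 with 10% IH, a difference of 0.47. Of 20 NRF2 genes 3 were higher (15% beside 2.62% of all genes) and 0 lower. The others were the cystine transporter gene Slc7a11 at 0.29 and Akr1b8, an aldo-keto reductase, at 0.27. Hmox1, which encodes haem oxygenase 1, was at 0.24 without meeting the criterion. Without the 10% IH array of BN1 the count was 1, with Slc7a11 at 0.22 and Akr1b8 at -0.05, and without the 5% IH array of BN2 it was also 1, with Slc7a11 at 0.24 and Akr1b8 at 0.09. Among 15 genes of iron handling the siderophore-binding Lcn2 was higher, at 0.28 (0.18 without the 5% IH array of BN2), and the iron regulator Ireb2 lower, at -0.38 (-0.24 without the 10% IH array of BN1). Each is 6.67% of the list, beside 2.62% of all genes higher and 1.85% lower.

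**Figure D5:**
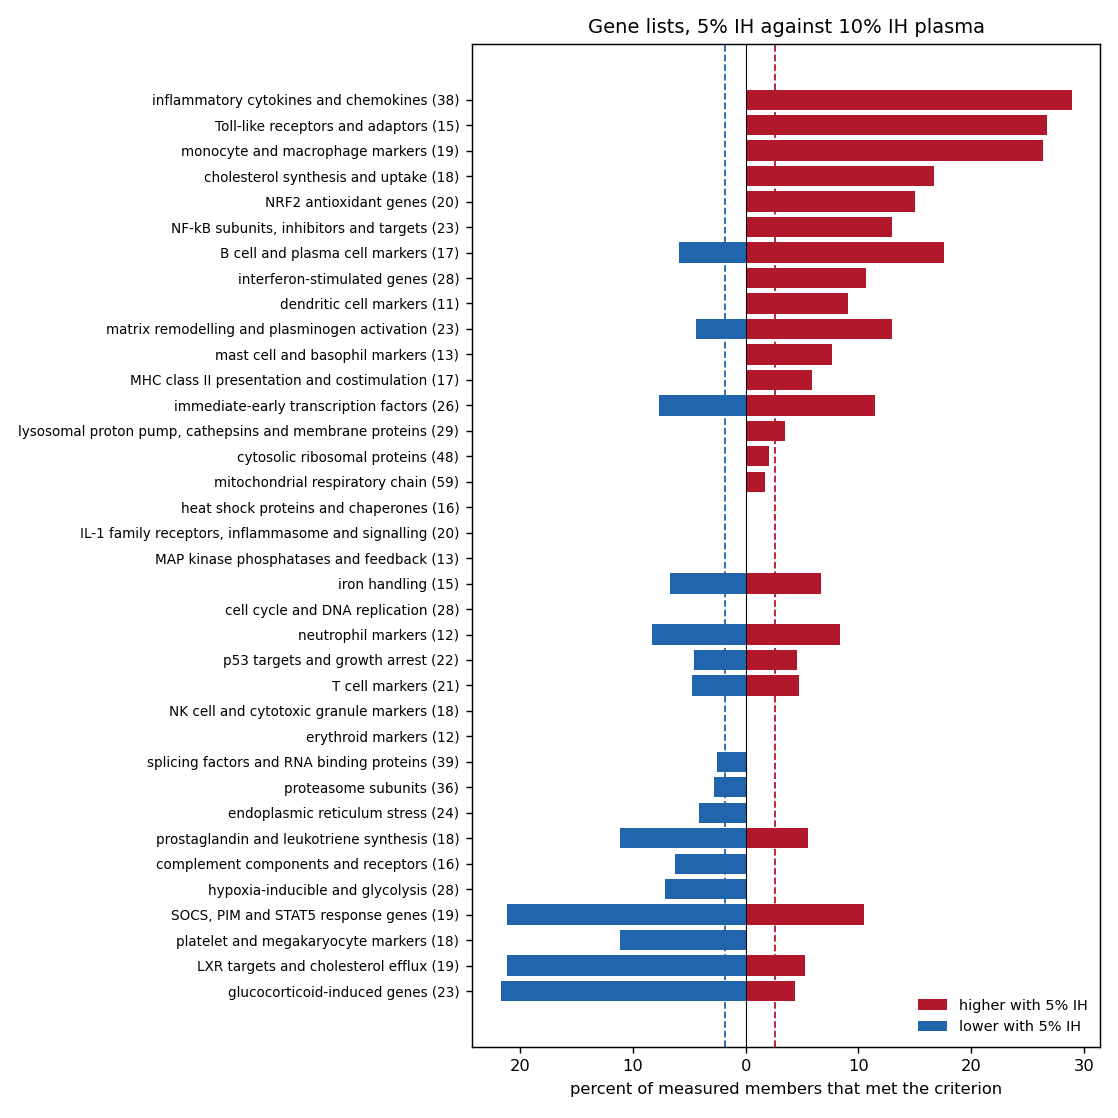
Percent of the measured members of each gene list (number in brackets) that met the criterion, higher with 5% IH to the right (red) and lower to the left (blue), with dashed lines at the 2.62% and 1.85% of all genes. Cytokines and chemokines, at 28.9%, have the longest bar to the right, and glucocorticoid-induced genes, at 21.7%, the longest to the left, and lists of 11 to 59 genes give coarse percentages. The list of genes that the study names is not plotted.

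Platelet and megakaryocyte markers leaned to 10% IH. Of 18 measured markers 2 (11.1% beside 1.85% of all genes) met the criterion, both lower with 5% IH, and 0 were higher. The 2 lower genes were Nrgn at -0.30 and Itga2b, the platelet integrin, at -0.27. The median was -0.14 (-0.19 in BN1 and -0.09 in BN2 cells). Both arrays of 5% IH lay under both of 10% IH for 11 of the 18, beside 15.1% of all genes. The mean level of the 18 genes was 8.52 and 8.49 with 5% IH and 8.68 and 8.58 with 10% IH, and no defining marker was near the bottom of the scale. Pf4 lay at 12.41 and 12.52 against 12.69 and 12.57. Without the 10% IH array of BN1 the median was -0.08 and Itga2b at -0.09. The part of platelet RNA in the genes that were lower with 5% IH was not tested.

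Markers of other blood cells showed few calls. Of 21 T cell markers 1 was higher (Trat1 at 0.30) and 1 lower (Il7r), with a median of -0.01. Of 18 NK cell and cytotoxic granule markers 0 met the criterion, with a median of -0.07, and of 12 erythroid markers 0, also with a median of -0.07. Of 12 neutrophil markers Lcn2 was higher and Defa5 lower at -0.30, and of 11 dendritic cell markers Lamp3 was higher at 0.38. Of 13 mast cell and basophil markers Hdc, which makes histamine, was higher at 0.28. In these lists each call is 4.76% (T cells) to 9.09% (dendritic cells) of the members, beside 2.62% of all genes higher and 1.85% lower. With 1 array left out Trat1 was at least at 0.26, Hdc at 0.25, Defa5 at -0.24 or below and Lamp3 at 0.13, the last without the 10% IH array of BN2. Lamp3 was at 0.63 without the 10% IH array of BN1. The NK cell list had up to 2 lower or 1 higher with 1 array left out, and the erythroid list up to 2 lower.

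Several programmes differed little. Among 28 hypoxia-inducible and glycolysis genes 0 were higher and 2 lower with 5% IH (Pfkl at -0.27 and Ddit4), with a median of -0.04, and Hif1a was at 0.04 (95% interval -0.19 to 0.26). The 2 lower genes are 7.14% of the list, beside 1.85% of all genes. Pfkl was at -0.12 without the 10% IH array of BN1. None of 28 cell cycle genes, 16 heat shock and chaperone genes or 13 MAP kinase phosphatases met the criterion. With 1 array left out, the cell cycle list had up to 5 higher (17.9%, without the 5% IH array of BN2 or the 10% IH array of BN1), the heat shock list up to 2 lower and the phosphatases up to 2 higher. Of 24 endoplasmic reticulum stress genes 1 was lower (Herpud1 at -0.27), of 36 proteasome subunits 1 lower (Psmb7 at -0.29), of 39 splicing genes 1 lower (Srsf7 at -0.28) and of 16 complement genes 1 lower (Cd55 at -0.29). These 4 were at -0.21, -0.16, -0.11 and -0.17 without the 10% IH array of BN1. As shares of their lists they are 4.17%, 2.78%, 2.56% and 6.25%, beside 1.85% of all genes. Of 48 cytosolic ribosomal protein genes 1 was higher (Rps27l at 0.32), of 59 respiratory chain genes 1 higher (Cox5a at 0.40) and of 29 lysosomal genes 1 higher (Ctsl, cathepsin L, at 0.32). These shares, 2.08%, 1.69% and 3.45%, lie near the 2.62% of all genes. Of 23 genes of matrix remodelling and plasminogen activation 3 were higher (Serpine2 at 0.35, Mmp12 at 0.34 and Mmp14 at 0.30) and 1 lower (Vcan, encoding versican, at -0.37). The shares of this list were 13% and 4.35%, beside 2.62% and 1.85% of all genes. Serpine2 and Mmp12 were dim, at percentiles 10.2 and 10.0, and Mmp14 was at 0.11 without the 10% IH array of BN1. Without the 5% IH array of BN2 Mmp12 was at 0.13 and Ctsl at 0.24, without that of BN1 Vcan was at -0.15, and without the 10% IH array of BN1 Rps27l was at 0.25. Other probe sets of Vcan gave -0.41 to 0.06, and the mean of its probe sets was -0.20.

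Of 41 genes picked by name in earlier work on these arrays, 38 have a value here. Between the 2 IH plasmas 16 of the 38 were higher with 5% IH (42.1% beside 2.62% of all genes), 8 lower (21.1% beside 1.85%), and 14 did not meet the criterion. Since these genes were picked on the same arrays, the counts are not independent evidence. Among those lower was Pdha1, a subunit of pyruvate dehydrogenase, at 10.77 and 10.71 against 11.12 and 11.05, a ratio of -0.35. Pdgfa, a growth factor gene, was at 0.31 and Cplx2 at -0.27, and without the 5% IH array of BN2 and the 10% IH array of BN2 they were at 0.13 and 0.02. They were at 0.16 and -0.56 without the 10% IH array of BN1. Akt2, a kinase of insulin signalling, differed little, at -0.04 with a 95% interval of -0.26 to 0.18. By their brightest probe sets Scaf11, Cul5, Rbbp6, Pde4d, Rif1, Api5, Atxn3, Cbl, Jam2, Usp7 and Zfp317 had ratios between -0.10 and 0.09, Dck was at -0.16 and Ptges at 0.15. Of these, Cul5 alone had no other probe set that met the criterion, so that for the others the brightest probe set does not settle whether the gene differed. Other probe sets were lower with 5% IH for Scaf11 (-0.67), Pde4d (-0.64), Rif1 (-0.60), Api5 (-0.57), Rbbp6 (-0.54), Atxn3 (-0.54), Zfp317 (-0.52), Dck (-0.32) and Akt2 (-0.28), and higher for Jam2 (0.69), Cbl (0.57), Usp7 (0.49) and Ptges (0.45). The ratios of these Jam2, Cbl and Usp7 probe sets are imprecise. Their SEs were 0.40, 0.41 and 0.52, beside a median SE of 0.10 over all genes. The mean of all probe sets was -0.30 for Rif1, -0.27 for Api5 and -0.31 for Pde4d.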

How the data were processed

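Transcripts of reporter PBMCs were measured on 8 Affymetrix rat expression arrays, 1 per culture, and 4 of them, 2 with 5% IH and 2 with 10% IH plasma, were compared here. The deposited log2 values were made by the authors in Expression Console by Robust Multichip Analysis (RMA), in which background is removed, the arrays are brought to the same distribution and probes are summarised. The submitters' processing notes also name Partek, without a role. RMA compresses small differences between dim probe sets, and the number of arrays limits the precision. There are 31042 probe sets in the table. In the annotation used 20826 of them had a single gene symbol, 436 had more and 9780 had none, so that 14217 genes could be compared. Each gene was given by the brightest, on average over the 8 arrays, of its probe sets with a single symbol. Groups and donors were taken from the sample titles.

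Ratios are the mean log2 level with 5% IH minus that with 10% IH. The Rank Product was computed in R 4.3.3 over the 4 between-array ratios with 100 permutations of the values within arrays, since the package named in the methods was not available. limma 3.58.1 was fitted to the 4 arrays with no term for donor, and its p-values were adjusted by Benjamini-Hochberg over the whole table. It gave the 2-sided p, SE and 95% intervals. The replicate number is the reporter donor, so that arrays of the same number share their cells, and deviations from the group means correlated between the plasmas at 0.165 over probe sets. The p-values measure the spread between cultures of 2 donors with the same plasma pools. The steps were tested on simulated data.

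Genes named are the 12 that rose most and the 12 that fell most of those meeting the criterion with ratios of the same sign in both donors, the genes the study names, and members of 37 gene lists, both those that moved most and the best known ones. Members and lists were chosen with earlier results of these data known. Lists are described by counts and medians, with no set test. The alternatives were each array left out, donor as a block, all 8 arrays in the fit, an intensity trend with robust moderation, leaving out the dimmest 40% of probe sets, 2 further normalizations, 2 other choices of probe set, a 2-sided p and the fold threshold alone. Promoter windows and gene types came from RefSeq tables of the rat build GRCr8, which served for names and sequence alone.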

Additional observations from a re-analysis of the deposited data

Results flagged for a closer look

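S100a9, which encodes a calcium-binding alarmin of neutrophils and monocytes, was past the 1.2-fold threshold in opposite directions in the 2 donors. Its log2 ratio of 5% over 10% IH plasma was 0.29 in BN1 cells and -0.37 in BN2 cells. The difference between donors was not tested, since each ratio comes from 1 array per plasma. S100a8, the partner of S100a9, was at 0.58 in BN1 cells and -0.09 in BN2 cells. Over all genes, 87 were past the threshold in opposite directions.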

How the results depend on the processing

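With 1 array left out, 958 to 1058 genes met the criterion in place of 636, with 509 to 560 higher and 398 to 549 lower, of which 388 to 435 were among the 636. A ratio then rests on fewer arrays, which widens its spread. The count of genes past the threshold in both donors could not be fitted with an array left out, since a donor would lack its partner. Without the dimmest 40% of probe sets 9971 genes were tested and 375 met the criterion (237 higher, 138 lower). Past the fold threshold in both donors were 123. The shares called were also smaller, at 2.38% higher and 1.38% lower in place of 2.62% and 1.85%. Subtracting array medians gave 645 genes, 63.4% of them higher in place of 58.6%, and averaging the probe sets of a gene gave 518. With reporter donor as a replicate block, by Rank Product over the within-donor ratios, 636 genes met the criterion and no call of a named gene changed. Each donor has 1 array per plasma, so the block leaves every ratio as it was. The unchanged calls therefore say little about donor effects. With the block limma called 0 genes after adjustment (lowest adjusted p = 0.054, for Rasd1). limma called 1 gene, Rasd1, with an intensity trend and robust moderation (adjusted p = 0.03) and the same gene when probe sets were averaged by gene (0.0151), and in other fits 0, with all 8 arrays giving a lowest adjusted p of 0.981.

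Among values past the threshold with or without the alternative, the sign turned with 1 array left out for Wdr33 (-0.13 to 1.60), Zfp451 (-0.0453 to 1.52), Akr1b8 (-0.0485 to 0.59), Nr1h2 (-0.65 to 0.00419), Cplx2 (-0.56 to 0.0242), Ccl4 (-0.34 to 0.27) and Il1r2 (-0.47 to 0.30), and with the mean of probe sets for Rif1 (-0.30) and Api5 (-0.27). The cause was not tested. Other named genes, among them Ptges, Ccl2 and Scaf11, also changed sign in such settings without passing the threshold there, so that their signs give no direction. Of the 24 genes with the largest differences, 22 kept their sign and side of the threshold without the 10% IH array of BN1, and 24 under each of the other alternatives run for them. Of 259 list medians under alternatives 41 had another sign, so that medians close to zero give no direction.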
